A study of Mus musculus with 9 samples.

Results

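Glycolysis enzymes turn glucose into pyruvate in the cytosol and yield ATP without oxygen, and lactate dehydrogenase then reduces pyruvate to lactate, which restores the NAD+ that the pathway consumes. Neutrophils hold few mitochondria and draw most of their ATP from this pathway, and activated macrophages are known to raise it. The 10 genes described here are enzymes of this route, taken by name from the 24296 genes of the joint count table. They are Hk2 (hexokinase), Pfkl (phosphofructokinase), Aldoa (aldolase), Tpi1 (triosephosphate isomerase), Gapdh (glyceraldehyde-3-phosphate dehydrogenase), Pgk1 (phosphoglycerate kinase), Pgam1 (phosphoglycerate mutase), Eno1 (enolase), Pkm (pyruvate kinase) and Ldha (a lactate dehydrogenase subunit). All 10 had a row in the table. The rule names genes and uses no measured value, but the list was drawn up with earlier results of these data known.

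The samples were single-cell libraries of whole left knee joints from female 129/Sve mice, 5 sick and 4 healthy, made with Seq-Well, in which single cells are lysed in small wells and their polyadenylated RNA is caught on barcoded beads. Sick mice (numbered 1, 3, 4, 5 and 6) had been sensitized to methylated bovine serum albumin (mBSA) and then, at 8 weeks of age, had antigen-induced arthritis (AIA) triggered by an mBSA injection into the left knee. Healthy mice (numbered 1 to 4) received phosphate-buffered saline in the same joint. Joints were taken 1 week after the injection, and the labels report that arthritis in the sick mice was checked by immunohistochemistry. The labels name no genetic change in either group and do not say whether the healthy mice were sensitized too.

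Of 16751 cells, 16749 were kept, with 1589079 to 4675909 counts per sick mouse and 896930 to 1514252 per healthy mouse. The labels call the tissue joint, and its cells were largely of blood-forming lineages: the neutrophil markers summed to 107650 to 178116 CPM (counts per 1000000 counts) in sick and 47839 to 118884 CPM in healthy joints, while the 2 chondrocyte markers in the table reached at most 5.35 CPM in sick and 21.5 CPM in healthy joints. Healthy mice 2, 3 and 4 stood apart from the rest, since only 33.5% to 35.4% of their cells could be gated by markers, against 61.2% to 73.7% in the sick mice and healthy mouse 1. Globin genes took 10.2% to 27.9% of the counts in sick and 17.6% to 39.7% in healthy mice, and mitochondrially encoded genes 3.09% to 6.05% in sick and 5.48% to 10.3% in healthy mice. The groups did not overlap in ribosomal RNA-like transcripts, at 0.997% to 2.32% of the counts in sick and 2.51% to 6.25% in healthy mice. The part of these differences in the results below was not tested except where values without those genes or mice are given. Only 8 cell barcodes were shared between libraries, each by a pair of cells. The labels give no sequencing batch, so a batch that followed the groups cannot be told apart from them.

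In the joint as a whole, most glycolysis genes had somewhat higher levels in sick than in healthy mice, and none passed the test. Counts were summed over all kept cells of a mouse, scaled to CPM with edgeR's TMM factors, and compared by edgeR's quasi-likelihood test, with Benjamini-Hochberg adjustment over all 10323 tested genes and a false discovery rate of 0.05. By this test 0 of the 10 members were called, while 97 genes (0.94%) were called in all, and 0.639% were called as higher in sick mice. At an unadjusted p under 0.05, 5 of 10 members (Hk2, Aldoa, Eno1, Pkm and Ldha) were higher in sick mice, against 7.43% of all tested genes. The log2 fold of sick over healthy was above 0 for 9 of 10 members, against 48% of all tested genes, and its median was 0.48 over the members and -0.02 over all tested genes. DESeq2 called 2 members, Hk2 and Ldha, both higher in sick mice, where it called 254 genes (2.46%) in all and 1.53% as higher. In such sums, fewer cells of a type and less RNA per cell cannot be told apart.

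**Figure D1:**
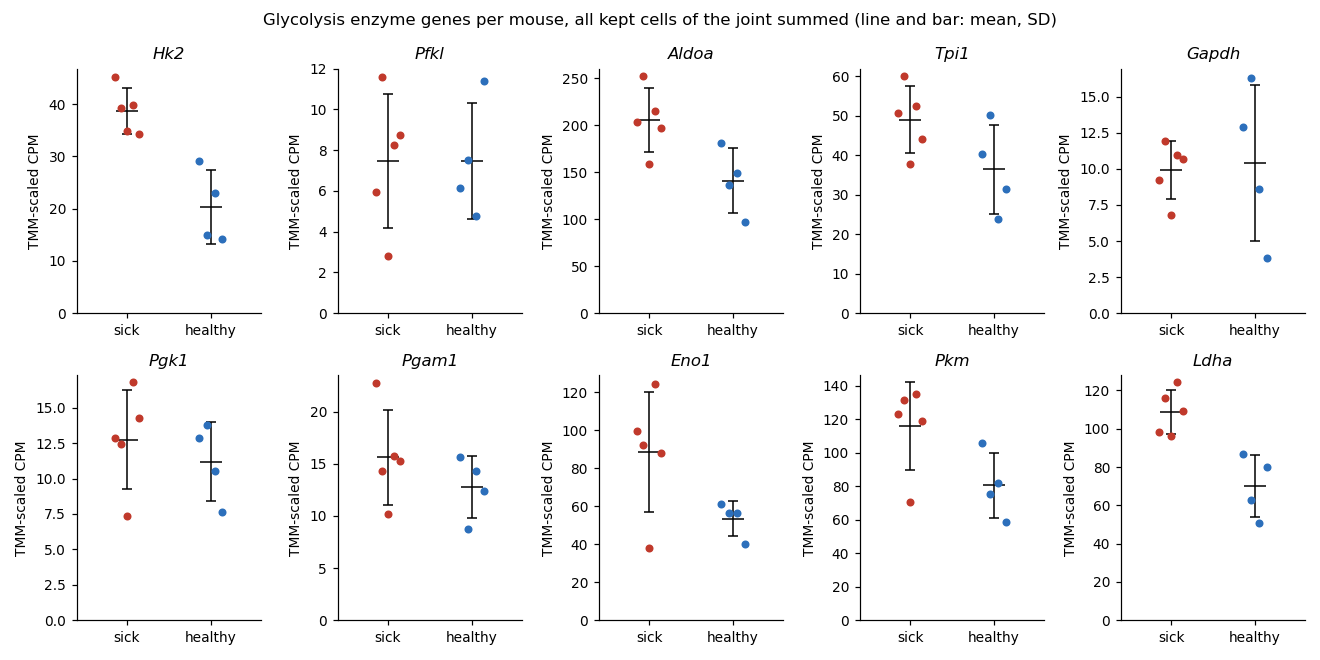
TMM-scaled CPM of each member (y axis, from 0, a separate scale per gene) in the whole joint of 5 sick and 4 healthy mice, with 1 point per mouse and the mean ± SD as line and bar. For Hk2 every sick mouse (34.4 to 45.2 CPM) lies above every healthy one (14.3 to 29.1 CPM), and the same holds for Ldha, while the groups overlap for the other members.

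Hexokinase is the enzyme that phosphorylates glucose on entry, and Hk2, its inducible form, lies at chr6:82725025-82774454 (GRCm38, GENCODE M21). Hk2 had 45.2, 39.2, 35.0, 39.8 and 34.4 CPM in sick mice 1, 3, 4, 5 and 6, against 29.1, 15.1, 23.0 and 14.3 CPM in healthy mice 1 to 4. Every sick mouse was above every healthy mouse, as was true of 2.87% of all tested genes. The log2 fold was 0.88 ± 0.22 (SE), which did not pass the test (edgeR adjusted p = 0.0838). Against healthy mouse 1 alone, with healthy mice 2, 3 and 4 left out, it was 0.43; this and the other values against that 1 mouse are given with no p, since the spread would come from the sick mice only. Without healthy mouse 1 it was 1.14, and the edgeR adjusted p was then 0.0206. That mouse had the highest healthy value, so leaving it out lowers the healthy mean. The fit without it called 255 of 11561 genes in all, against 97 of 10323 with all mice.

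At the other end of the route, Ldha, which makes lactate (chr7:46841475-46855627), had 98.4, 116, 96.4, 124 and 109 CPM in sick mice and 86.7, 62.7, 50.7 and 79.9 CPM in healthy mice. Again no sick mouse fell within the healthy range, and sick mouse 4 and healthy mouse 1 were the closest pair. The log2 fold was 0.62 ± 0.17 (SE), with an edgeR adjusted p of 0.107. It was 0.35 against healthy mouse 1 alone. Without that mouse, again the highest of the healthy mice, 5 sick against 3 healthy mice gave 0.75 (edgeR adjusted p = 0.0432). This is the same fit that called 255 genes in all. Hk2 and Ldha were thus the pair whose groups did not overlap in the whole joint, and also the pair that DESeq2 called, with adjusted p-values of 0.0203 for Hk2 and 0.0354 for Ldha.

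Because these 2 genes had groups apart, their RefSeq promoter stretches (GRCm38.p6) are shown, each the 250 bases upstream of an annotated start, 5′ to 3′ on the gene's strand. Capitals mark ACGTG or its reverse complement CACGT, a form of the core that hypoxia-inducible factor is known to bind. This form overlaps the CACGTG box of other factors. The core can also start with G (GCGTG), and that form was not searched. The Hk2 stretch is chr6:82774455-82774704 (minus strand) and the Ldha stretch chr7:46845554-46845803 (plus strand).
Hk2: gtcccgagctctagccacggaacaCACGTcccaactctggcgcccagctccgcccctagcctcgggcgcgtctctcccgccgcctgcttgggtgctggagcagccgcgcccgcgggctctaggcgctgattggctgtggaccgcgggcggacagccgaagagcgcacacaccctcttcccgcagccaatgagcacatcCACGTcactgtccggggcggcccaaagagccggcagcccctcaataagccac
Ldha: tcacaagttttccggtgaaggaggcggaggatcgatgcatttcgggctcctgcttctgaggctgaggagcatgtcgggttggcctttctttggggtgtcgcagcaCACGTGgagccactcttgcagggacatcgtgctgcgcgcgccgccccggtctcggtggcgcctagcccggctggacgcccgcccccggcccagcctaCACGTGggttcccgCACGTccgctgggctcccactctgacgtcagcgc

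The Hk2 stretch held 2 separate matches, starting 226 and 52 bases before the start, and the Ldha stretch held 3, starting 145, 48 and 34 bases before it. On the same search, 1.95% of 32851 mouse promoter stretches held 2 or more matches and 0.256% held 3 or more. A second annotated Ldha start had no match in its stretch. Pgk1, whose groups overlapped in the whole joint, also had 2 matches, starting 150 and 131 bases before its start. Of the 10 members, all matched by symbol, 6 had a match in at least 1 stretch, against 18.5% of 27025 genes. Pfkl, Tpi1, Gapdh and Eno1 had no match to the form searched. Counted by stretch, 7 of 16 member stretches had a match, against 16.6% of all stretches. Among the 7 were overlapping Aldoa stretches that held the same site. The matches describe the letters of these windows; binding was not measured.

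The steps between hexokinase and the triose phosphates gave smaller or overlapping differences. Phosphofructokinase commits sugar to the pathway, and the liver-type gene Pfkl had 5.94, 11.6, 2.82, 8.23 and 8.76 CPM in sick mice against 6.15, 7.53, 4.78 and 11.4 CPM in healthy mice. With only 138 counts in all sick and 34 in all healthy mice, its log2 fold of 0.09 ± 0.39 (SE) had an edgeR adjusted p of 0.938. Aldolase splits the 6-carbon sugar, and Aldoa had 203, 253, 158, 216 and 197 CPM in sick mice and 181, 137, 149 and 97.0 CPM in healthy mice. All sick mice but mouse 4 were above all healthy mice. The log2 fold was 0.54 ± 0.18 (SE; edgeR adjusted p = 0.198), and 0.20 against healthy mouse 1 alone. Tpi1, which interconverts the triose phosphates, had 50.8, 60.2, 37.8, 52.5 and 44.1 CPM in sick mice and 40.3, 50.2, 23.9 and 31.4 CPM in healthy mice, a log2 fold of 0.45 ± 0.21 (SE; edgeR adjusted p = 0.370) with overlapping groups.

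The Gapdh row requires a separate account. The Gapdh enzyme produces the NADH of the pathway and its transcript is usually abundant, yet its row held only 220 counts over all 9 mice, with 9.24, 11.9, 6.77, 11.0 and 10.7 CPM in sick and 12.9, 16.3, 8.61 and 3.80 CPM in healthy mice. The table also has rows for 85 near-identical copies of Gapdh (at least 95% identity over at least 200 bases), all but 2 annotated as processed pseudogenes, and these held 6118 counts, 96.5% of the Gapdh and copy counts together. The last 90 coding bases of Gapdh before the stop codon, from the GENCODE M21 transcript, are shown with 4 of the copies that had high counts, 5′ to 3′, with differences from Gapdh in capitals.
Gapdh: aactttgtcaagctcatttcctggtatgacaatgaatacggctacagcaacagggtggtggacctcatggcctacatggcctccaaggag
Gm5523: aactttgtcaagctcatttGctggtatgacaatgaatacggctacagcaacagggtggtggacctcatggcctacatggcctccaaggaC
Gm5944: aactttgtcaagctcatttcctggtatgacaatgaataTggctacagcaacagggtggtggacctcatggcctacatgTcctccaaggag
Gm3695: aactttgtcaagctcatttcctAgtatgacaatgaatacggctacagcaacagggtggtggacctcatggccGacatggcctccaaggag
Gm5863: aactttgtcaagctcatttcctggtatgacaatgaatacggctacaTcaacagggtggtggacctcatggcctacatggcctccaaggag

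Of 75 copies that aligned to this stretch without a gap, 32 were identical to Gapdh and 36 differed at 1 to 3 bases. The Gm5523 row held 280 counts, Gm5944 249, Gm3695 216 and Gm5863 210, each close to or above the 220 of Gapdh itself. The single Gapdh row is therefore an uncertain measure of the gene, since counting could split reads between these rows. Summed with its copies, Gapdh had 220, 356, 242, 323 and 280 CPM in sick mice and 339, 515, 269 and 162 CPM in healthy mice. The groups overlapped in both countings, with a log2 fold of -0.03 ± 0.34 (SE; edgeR adjusted p = 0.978) for the row alone and -0.17 ± 0.25 (SE; edgeR adjusted p = 0.797) with the copies.

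**Figure D2:**
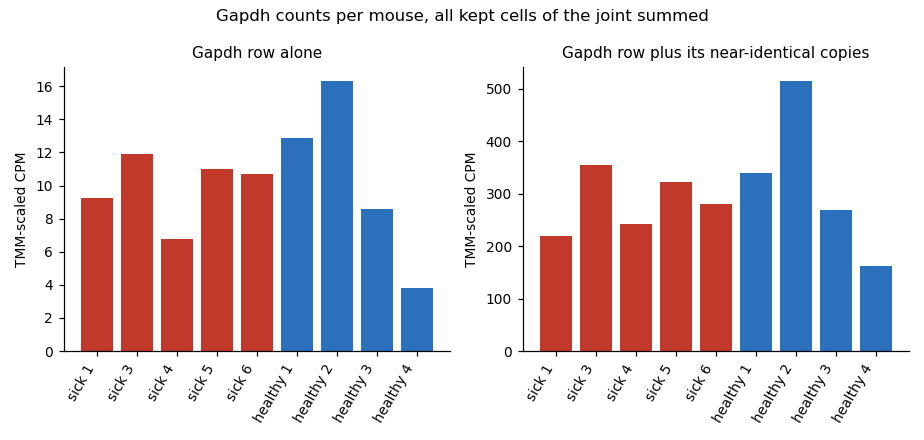
Gapdh in the whole joint as TMM-scaled CPM per mouse (bars from 0), on the left for the Gapdh row alone and on the right for that row plus its 85 near-identical copies, with the 5 sick mice left of the 4 healthy mice in each panel. The copies raise the scale from at most 16.3 CPM to at most 515 CPM, and healthy mouse 2 is highest and healthy mouse 4 lowest in both panels.

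Other members were less affected by copies. Copy rows held 26.2% of the joint counts for Eno1 (3 rows, among them Eno1b, annotated as protein-coding), 13.5% for Pkm (1 row), 13.2% for Ldha (3 rows) and 5.15% for Tpi1, at most 1.11% for Pgk1 and Pgam1, and none for Hk2, Pfkl and Aldoa. Adding them changed no call in the whole joint, where Ldha with its copies had a log2 fold of 0.68 (edgeR adjusted p = 0.0840) and Eno1 one of 0.60 (edgeR adjusted p = 0.268). In each gate described below where Eno1 was tested, its log2 fold was smaller with the copies. It went from 0.53 to 0.30 in granulocyte progenitors and from 0.56 to 0.28 in monocytes or macrophages. In neutrophils it went from 0.33 to 0.16.

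After the triose phosphates, Pgk1, whose enzyme makes the first ATP, had 12.9, 12.5, 7.33, 16.8 and 14.3 CPM in sick mice and 12.9, 13.8, 10.5 and 7.61 CPM in healthy mice (log2 fold 0.20 ± 0.29, SE). Pgam1, which moves the phosphate group of 3-phosphoglycerate, had 22.8, 14.3, 10.2, 15.8 and 15.2 CPM in sick mice and 15.7, 8.78, 14.3 and 12.4 CPM in healthy mice (log2 fold 0.26 ± 0.27, SE). Both pairs of groups overlapped. Their edgeR adjusted p-values were 0.792 for Pgk1 and 0.709 for Pgam1.

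Eno1 and Pkm, whose enzymes make phosphoenolpyruvate and then pyruvate, shared a pattern in which 4 sick mice were above all healthy mice and sick mouse 4 was low. Eno1 had 99.7, 92.3, 37.8, 125 and 87.9 CPM in sick mice 1, 3, 4, 5 and 6, and 61.0, 56.5, 56.4 and 39.9 CPM in healthy mice. Its log2 fold was 0.73 ± 0.26 (SE; edgeR adjusted p = 0.231), and 0.90 without sick mouse 4, where the edgeR adjusted p was 0.0217. That mouse had the lowest sick value, so leaving it out raises the sick mean. The fit without it called 126 of 10913 genes in all, against 97 of 10323 with all mice. Pkm had 123, 132, 70.5, 135 and 119 CPM in sick mice and 106, 75.3, 82.3 and 59.0 CPM in healthy mice, with sick mouse 4 within the healthy range. Its log2 fold of 0.52 ± 0.21 (SE) had an edgeR adjusted p of 0.279, and 0.0947 without sick mouse 4. Against healthy mouse 1 alone the log2 folds were 0.56 for Eno1 and 0.16 for Pkm.

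To look within cell types, cells were gated by marker genes that included no member. The gates compared held 3761 neutrophils, 775 granulocyte progenitors, 1332 monocytes or macrophages, 2211 erythroid cells, 671 B cells and 444 eosinophils, and 6648 cells stayed ungated. Of the neutrophils, 3321 came from sick and 440 from healthy mice, 287 of the latter from healthy mouse 1. Neutrophils were 17.7% to 34.3% of kept cells in sick mice, 27.3% in healthy mouse 1 and 3.00% to 6.96% in healthy mice 2, 3 and 4. The part of these shares in the whole-joint values was not tested. Other gates, such as skeletal muscle with 244 cells, had too few mice with enough cells to be compared. Skeletal muscle markers summed to 137 to 1055 CPM in sick and 209 to 459 CPM in healthy whole joints. The markers of the neutrophil gate, such as S100a8 and Camp, summed to 371218 CPM in gated neutrophils, but also to 36256 CPM in gated erythroid cells and 41951 CPM in gated monocytes or macrophages, types that should lack most of them. In the monocyte or macrophage gate this neutrophil signal was 30768 to 50649 CPM in sick and 16290 to 29317 CPM in healthy mice, and its part in the member levels there was not tested. In the granulocyte progenitor gate it was 73775 to 113211 CPM in sick and 32855 to 74219 CPM in healthy mice, and in the erythroid gate 33864 to 41311 CPM in sick and 17249 to 34312 CPM in healthy mice. Mitochondrially encoded genes in the monocyte or macrophage gate summed to 37275 to 81150 CPM in sick and 65614 to 118766 CPM in healthy mice, ribosomal RNA-like transcripts to 11552 to 22947 CPM in sick and 21719 to 38498 CPM in healthy mice, and haemoglobin genes to 38434 to 129036 CPM in sick and 77777 to 224169 CPM in healthy mice. In the neutrophil gate mitochondrially encoded genes summed to 24032 to 51575 CPM in sick and 40351 to 75955 CPM in healthy mice, in the granulocyte progenitor gate to 22997 to 45609 CPM in sick and 37383 to 80055 CPM in healthy mice, and in the erythroid gate to 24459 to 55084 CPM in sick and 48253 to 88386 CPM in healthy mice. The part of these in the member levels was not tested beyond the totals without those genes given below. Totals were low in healthy mice: in the neutrophil gate of healthy mouse 3, with 34687 counts in all, the 28.2 CPM of Tpi1 given below are 1 count.

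In gated neutrophils 6 members had enough counts to be tested and 0 were called (0.574% of 3310 genes were called; 0 members by DESeq2). Tpi1 came nearest, with 38.7, 52.3, 50.1, 47.2 and 71.5 CPM in sick and 15.9, 47.9, 28.2 and 20.1 CPM in healthy neutrophils. Its log2 fold was 1.20 ± 0.48 (SE), with an unadjusted p of 0.0189 and an edgeR adjusted p of 0.456, and it rested on 10 counts in all healthy neutrophils. It was the single tested member that was higher at an unadjusted p under 0.05 (4.89% of tested genes were), and the groups overlapped because of healthy mouse 2. Hk2 had 87.2, 50.3, 72.8, 67.4 and 55.2 CPM in sick and 47.7, 16.0, 0 and 60.4 CPM in healthy neutrophils (log2 fold 0.73 ± 0.42, SE; edgeR adjusted p = 0.648). Pkm had 188, 201, 155, 217 and 231 CPM in sick and 223, 160, 254 and 201 CPM in healthy neutrophils, a log2 fold of -0.06 ± 0.24 (SE; edgeR adjusted p = 0.977). The log2 folds were 0.31 for Aldoa, 0.33 for Eno1 and 0.31 for Ldha, all with an edgeR adjusted p above that of Hk2.

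With its copies, Gapdh in neutrophils had 263, 438, 341, 403 and 371 CPM in sick and 468, 927, 1100 and 221 CPM in healthy mice. Healthy mice 1, 2 and 3 were above every sick mouse and healthy mouse 4 was below. The log2 fold was -0.82 ± 0.28 (SE), with an unadjusted p of 0.00578 and an edgeR adjusted p of 0.294. In the other gates where the sum could be tested, Gapdh with its copies had a log2 fold of -0.70 ± 0.33 in monocytes or macrophages (SE; unadjusted p = 0.0438, edgeR adjusted p = 0.369). It was -0.0044 ± 0.24 in granulocyte progenitors, 0.20 ± 0.44 in erythroid cells and 0.11 ± 0.47 in B cells (log2 fold ± SE), none with an unadjusted p under 0.05.

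In gated granulocyte progenitors, the precursors that make primary granule proteases, 5 members were tested and 0 were called (0.887% of 2593 genes were called; 0 members by DESeq2). Ldha had 184, 178, 152, 150 and 173 CPM in sick and 135, 49.4, 133 and 106 CPM in healthy progenitors. Every sick mouse was above every healthy mouse, as for 2.93% of the tested genes, and the log2 fold was 0.60 ± 0.30 (SE; unadjusted p = 0.0495, edgeR adjusted p = 0.435). At an unadjusted p under 0.05, 5.75% of tested genes were higher in sick mice. With its copies, Ldha had a log2 fold of 0.55 ± 0.28 there (SE; edgeR unadjusted p = 0.0604). Eno1 had 178, 201, 114, 248 and 191 CPM in sick and 141, 148, 133 and 84.5 CPM in healthy progenitors, again with sick mouse 4 as the low one. Its log2 fold was 0.53 ± 0.29 (SE; edgeR adjusted p = 0.501). The log2 folds of the others were 0.36 for Aldoa, 0.33 for Tpi1 and 0.25 for Pkm, none with an unadjusted p under 0.05.

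In gated monocytes or macrophages, 4 members were tested and 0 were called (0.703% of 2135 genes were called; 0 members by DESeq2). Aldoa had 275, 384, 238, 402 and 237 CPM in sick and 228, 32.0, 120 and 202 CPM in healthy mice. The lowest sick mouse stood just above healthy mouse 1, and full separation of this kind was seen for 3.98% of the tested genes. The log2 fold was 0.89 ± 0.32 (SE; unadjusted p = 0.0112, against 6.74% of tested genes higher at an unadjusted p under 0.05; edgeR adjusted p = 0.232), and 0.48 against healthy mouse 1 alone. Pkm had 146, 198, 119, 159 and 176 CPM in sick and 187, 32.0, 95.7 and 0 CPM in healthy mice, a log2 fold of 0.44 ± 0.39 (SE) that was -0.18 against healthy mouse 1 alone. Eno1 and Ldha had log2 folds of 0.56 ± 0.42 and 0.60 ± 0.42 (SE), with edgeR adjusted p-values of 0.635 and 0.602.

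In gated erythroid cells, where mature red cells depend on glycolysis for all their ATP, 2 members were tested and 0 were called (1.07% of 3377 genes were called; 0 members by DESeq2, and 0 at an unadjusted p under 0.05). Ldha had 25.0, 68.5, 77.0, 49.8 and 48.6 CPM in sick and 18.4, 15.3, 37.0 and 54.3 CPM in healthy mice, a log2 fold of 0.83 ± 0.43 (SE; edgeR adjusted p = 0.504). Aldoa differed by a log2 fold of 0.13 ± 0.29 (SE). Tpi1 had too few counts to be tested there, with 77 in all sick and 11 in all healthy mice. Its 24.9 to 40.2 CPM in sick mice did not overlap the 14.8 to 20.4 CPM in healthy mice. Of the tested genes, which Tpi1 is not among, 2.69% had every sick mouse above every healthy one, and no share was computed for untested genes. No member had enough counts to be tested in B cells or eosinophils, where the healthy sums held at most 14 counts of any member in B cells and at most 46 in eosinophils. Every sick mouse was also above every healthy one for Pgk1 in B cells, at 10.9 to 17.8 CPM against 0 CPM. This rested on 9 counts in all sick and 0 in all healthy mice. The B-cell sums of the healthy mice held only 27964 to 72066 counts each. The groups were also apart for Ldha in eosinophils, at 98.7 to 133 CPM in sick and 77.8 to 93.4 CPM in healthy mice (31 and 19 counts). No share of all genes is given for these 2 gates, so how common such separation was there is not shown.

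**Figure D3:**
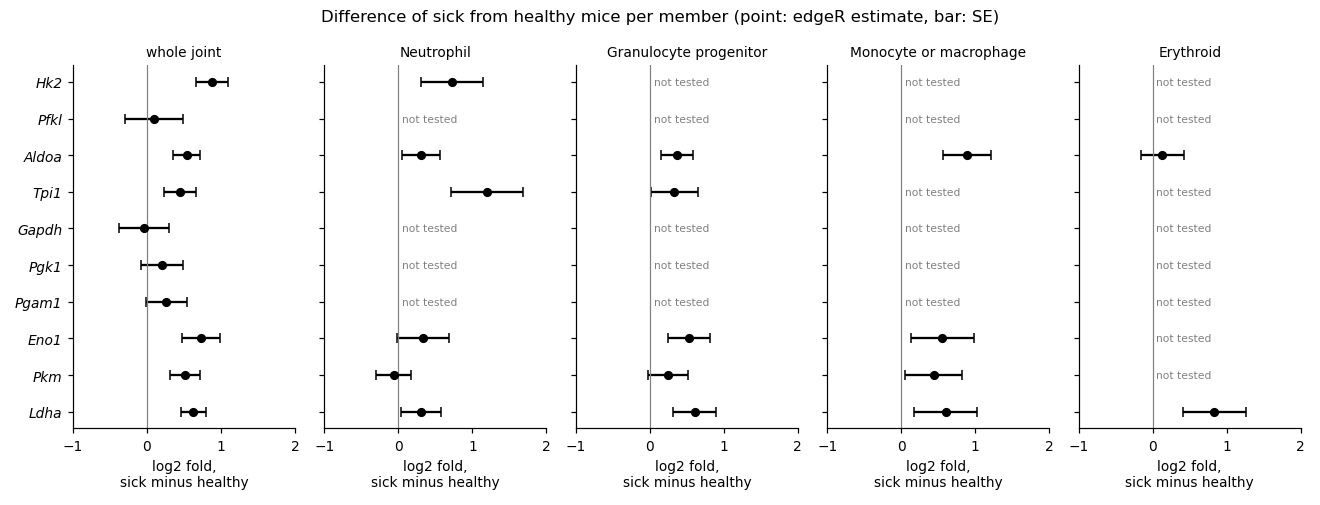
Log2 fold of sick over healthy mice (x axis, 0 marked by a line) for each member in the whole joint and in 4 gated cell types, as edgeR estimate (point) ± SE (bar); members with too few counts are marked as not tested. Neutrophil Tpi1 lies farthest to the right at 1.20, and Gapdh in the whole joint and Pkm in neutrophils are the only estimates below 0.

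The difference between sick and healthy mice was also compared between neutrophils and monocytes or macrophages, by an interaction term with the mouse in the model. Of 6 members tested, 0 were called and 0 had an unadjusted p under 0.05, while 9 of 3495 genes (0.258%) were called. The difference of log2 folds, neutrophils minus monocytes or macrophages, was -0.60 ± 0.35 (SE) for Aldoa, 0.99 ± 0.71 for Tpi1 and -0.49 ± 0.39 for Pkm, with edgeR adjusted p-values of 0.884, 0.927 and 0.927.

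Across cell types, the level of each member was read as CPM of all counts of a gate, averaged over mice of both groups (mean ± SD, n = 9 mice, and 8 for eosinophils). Hk2 was at 66.8 ± 35.3 CPM in monocytes or macrophages, 53.4 ± 25.3 in eosinophils, 50.3 ± 27.0 in neutrophils, 39.2 ± 18.5 in granulocyte progenitors, 19.6 ± 23.8 in B cells and 6.95 ± 6.04 in erythroid cells. Pfkl was at 14.4 ± 17.8 CPM in monocytes or macrophages, 13.2 ± 15.1 in eosinophils, 9.41 ± 13.2 in granulocyte progenitors, 5.57 ± 4.43 in erythroid cells, 4.07 ± 6.16 in B cells and 3.67 ± 4.85 in neutrophils. For Hk2 the erythroid mean was the lowest, and for Pfkl every SD was close to or above its mean outside the erythroid gate.

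Aldoa was at 356 ± 103 CPM in granulocyte progenitors, 252 ± 74.2 in neutrophils, 244 ± 131 in monocytes or macrophages, 151 ± 95.6 in eosinophils, 105 ± 79.9 in B cells and 81.4 ± 21.2 in erythroid cells. Tpi1 was at 118 ± 39.5 CPM in granulocyte progenitors, 63.5 ± 24.0 in monocytes or macrophages, 44.4 ± 35.0 in eosinophils, 41.9 ± 25.9 in B cells, 41.4 ± 17.4 in neutrophils and 24.6 ± 10.2 in erythroid cells. Among the 6 gates compared, both had their highest mean in granulocyte progenitors. In all 9 mice, Aldoa was higher in granulocyte progenitors than in neutrophils, and Tpi1 higher in them than in monocytes or macrophages. With globin, mitochondrial and ribosomal RNA-like genes left out of the total, this held in 9 of 9 mice for Aldoa and in 7 of 9 for Tpi1 (exact sign-flip permutation p = 0.0156, adjusted 0.195).

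The middle enzymes had few counts, and the steps between neighbours in their order lay within the spread. Each had its lowest mean in the erythroid gate. Gapdh (its row alone) was at 21.5 ± 11.1 CPM in monocytes or macrophages, 19.1 ± 12.8 in granulocyte progenitors, 18.9 ± 17.1 in neutrophils, 15.1 ± 16.9 in eosinophils, 9.45 ± 11.3 in B cells and 3.32 ± 3.40 in erythroid cells. Pgk1 was at 31.7 ± 41.0 CPM in eosinophils, 22.7 ± 19.4 in monocytes or macrophages, 20.8 ± 11.4 in neutrophils, 20.3 ± 11.9 in granulocyte progenitors, 9.36 ± 9.14 in B cells and 2.84 ± 2.79 in erythroid cells. The highest eosinophil value of Pgk1 was that of sick mouse 5, at 124 CPM from 3 counts. Pgam1 was at 50.4 ± 23.6 CPM in granulocyte progenitors, 27.8 ± 17.7 in neutrophils, 25.4 ± 11.9 in monocytes or macrophages, 15.5 ± 16.0 in eosinophils, 12.5 ± 18.6 in B cells and 3.24 ± 4.76 in erythroid cells.

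Eno1 was at 162 ± 58.8 CPM in granulocyte progenitors, 142 ± 76.5 in monocytes or macrophages, 133 ± 68.5 in neutrophils, 61.6 ± 44.7 in B cells, 40.3 ± 24.9 in eosinophils and 18.4 ± 4.98 in erythroid cells. Pkm was at 203 ± 32.2 CPM in neutrophils, 188 ± 45.9 in granulocyte progenitors, 129 ± 76.6 in monocytes or macrophages, 108 ± 73.0 in eosinophils, 75.0 ± 40.4 in B cells and 23.0 ± 10.6 in erythroid cells. Ldha was at 142 ± 49.1 CPM in granulocyte progenitors, 135 ± 36.5 in neutrophils, 118 ± 52.3 in monocytes or macrophages, 111 ± 46.0 in B cells, 106 ± 35.4 in eosinophils and 44.7 ± 24.7 in erythroid cells. In the erythroid gate these were the lowest means of all 3 genes, with the myeloid gates at the top of each order.

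Neighbours in these orders were compared within mice by an exact sign-flip permutation test (two-sided) of the difference in log2(CPM + 10), adjusted over all 50 neighbour pairs, and 0 pairs passed. At an unadjusted p under 0.05 there were 8 pairs. The smallest exact p that 9 mice allow, 0.00391, was reached by Aldoa and Tpi1 between granulocyte progenitors and the next cell type and by Pkm between B cells and erythroid cells, each higher in 9 of 9 mice, with an adjusted exact p of 0.0651. Ldha was higher in eosinophils than in erythroid cells in 8 of 8 mice (exact p = 0.00781, the smallest that 8 mice allow, adjusted exact p = 0.0977). No neighbouring pair of cell types was thus shown to differ, but with 50 pairs a lone pair could not pass even at an exact p of 0.00391. The order was taken from the same CPM values, and cell types further apart in it were not compared. The test can therefore not show that the cell types are alike. Globin transcripts in the total lower the CPM of other genes in the erythroid gate, and with globin, mitochondrial and ribosomal RNA-like genes left out of the total again 0 pairs passed.

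**Figure D4:**
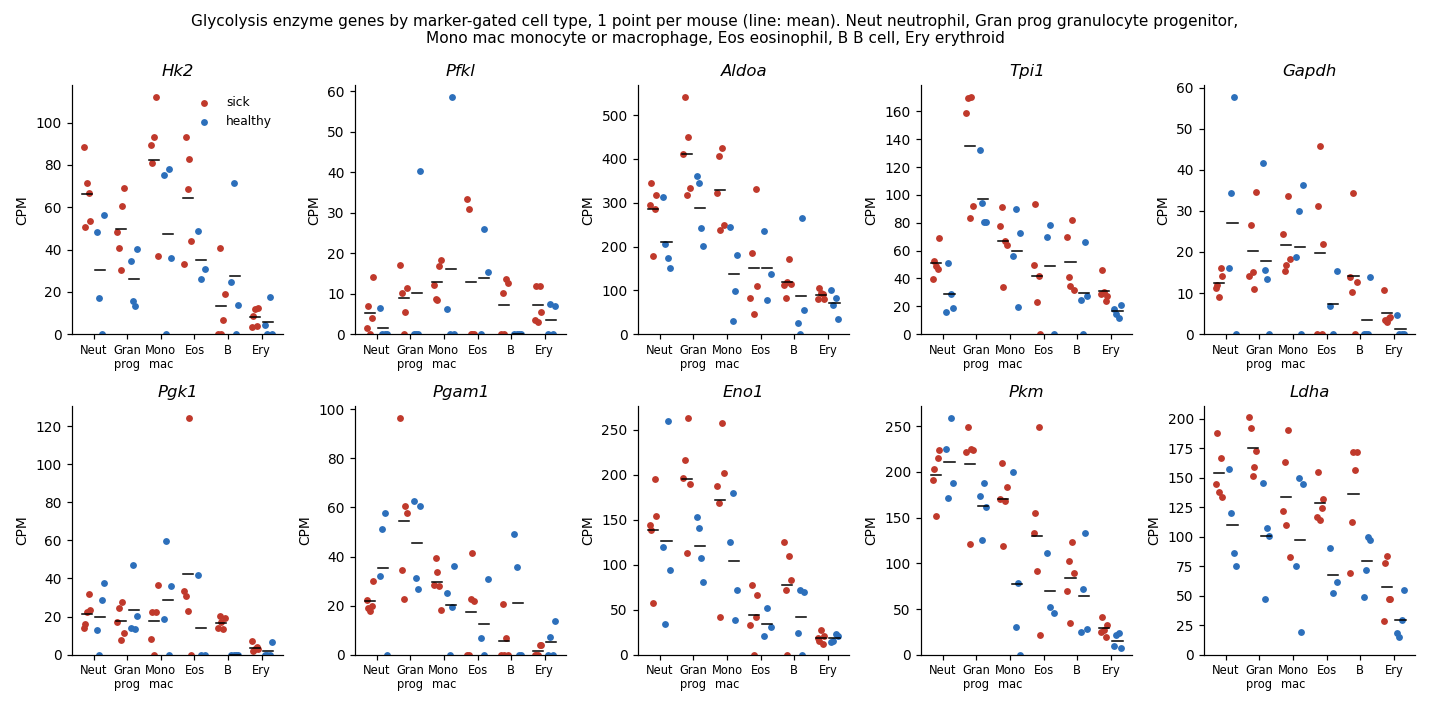
CPM of each member (y axis, from 0) in 6 marker-gated cell types, with 1 point per mouse, sick left of healthy in each cell type, and the group mean as a line. Points spread widely in monocytes or macrophages, eosinophils and B cells, and the erythroid gate is low for Hk2, Eno1 and Pkm, with means of 6.95, 18.4 and 23.0 CPM over all mice.

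Taken as a sum, the 10 rows made up 0.0838%, 0.0878%, 0.0517%, 0.0768% and 0.0615% of all counts in sick mice 1, 3, 4, 5 and 6, against 0.0651%, 0.0394%, 0.0317% and 0.0278% in healthy mice 1 to 4. The groups overlapped, because healthy mouse 1 was above sick mice 4 and 6. With globin, mitochondrial and ribosomal RNA-like genes left out of the total, the share was 0.0962% ± 0.0144 in sick and 0.0718% ± 0.0118 in healthy mice (SD, n = 5 and 4). Among gated cells the share was 0.128% ± 0.0258 in sick and 0.0891% ± 0.0156 in healthy granulocyte progenitors, and 0.103% ± 0.0247 in sick and 0.0610% ± 0.0179 in healthy monocytes or macrophages. It was 0.0953% ± 0.0149 in sick and 0.0801% ± 0.0173 in healthy neutrophils. In erythroid cells it was 0.0252% ± 0.00435 in sick and 0.0167% ± 0.00165 in healthy mice. In skeletal muscle, a gate not compared, it was 0.129% ± 0.0224 in 4 sick mice and 0.0258% in the 1 healthy mouse with enough cells. With globin, mitochondrial and ribosomal RNA-like genes left out, the means in B cells were 0.0649% in sick and 0.0620% in healthy mice, against 0.0526% in sick and 0.0353% in healthy mice with them. In eosinophils they were 0.0882% in sick and 0.0817% in healthy mice without those genes, against 0.0652% in sick and 0.0455% in healthy mice with them. In neutrophils the means without them were 0.109% in sick and 0.0984% in healthy mice, in granulocyte progenitors 0.143% in sick and 0.115% in healthy mice, in monocytes or macrophages 0.122% in sick and 0.0844% in healthy mice, and in erythroid cells 0.0424% in sick and 0.0322% in healthy mice. These sums are descriptions without a test. They count Gapdh by its row alone and leave out the 6118 counts of its copies. In neutrophils Gapdh with its copies averaged 361 CPM in sick and 700 CPM in healthy mice. With the copies counted, the healthy neutrophil mean of the share would lie above the sick mean.

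**Figure D5:**
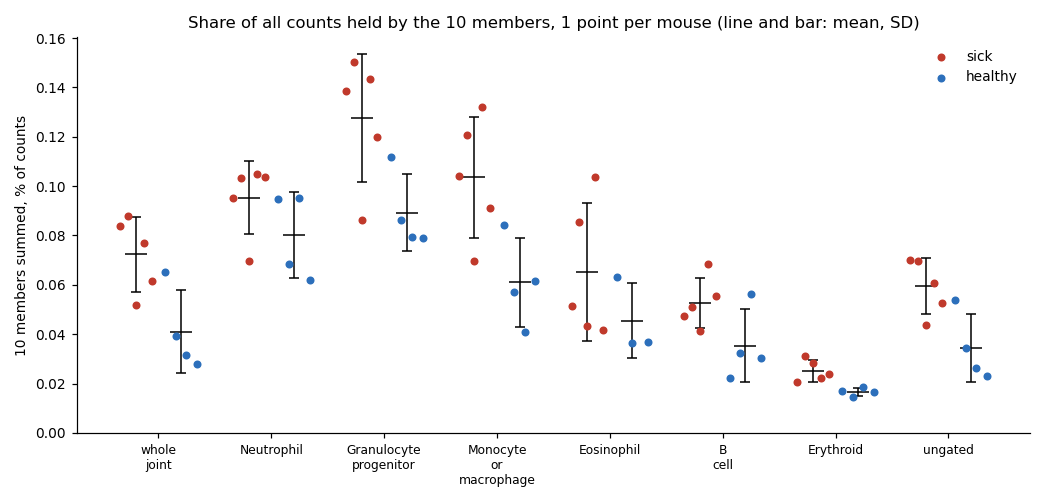
Share of all counts held by the 10 members summed (y axis, percent, from 0) in the whole joint, in 6 gated cell types and in ungated cells, with 1 point per mouse, sick left of healthy, and the mean ± SD. All genes are in the total here, and Gapdh is counted by its row alone, without its copies. Sick means lie above healthy means in each column, though by little in B cells (0.0649% in sick, 0.0620% in healthy) and eosinophils (0.0882% in sick, 0.0817% in healthy) once globin, mitochondrial and ribosomal RNA-like genes leave the total, with overlap in the whole joint, where healthy mouse 1 (0.0651%) is above sick mice 4 (0.0517%) and 6 (0.0615%).

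Genes with a pattern most like the members were ranked by Pearson's r with the mean standardized log2 CPM of Aldoa and Ldha, the members tested in all of 4 cell types (neutrophils, granulocyte progenitors, monocytes or macrophages, erythroid cells). The ranking covered 1482 genes over 36 sums of mouse and cell type, which share mice and differ in depth. The first 10 were Clic1 (r = 0.874), Lamtor4 (0.856), Sem1 (0.856), Mrpl33 (0.847), Gmfg (0.847), Itm2b (0.833), Capns1 (0.832), Gm9835 (0.831), Tmed3 (0.830) and Ssu72 (0.83).

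Other genes of sugar metabolism were followed as 4 lists, none of which had a gene called by edgeR in the whole joint. Of 23 other glycolysis isoenzymes and regulators, 13 were tested, and 0 passed in either direction. The log2 fold was above 0 for 11 of the 13, against 48% of all tested genes, with a median of 0.24. The 11 include Eno1b, counted above as a near-identical copy of Eno1. At an unadjusted p under 0.05, 1 was lower in sick mice, against 6.36% of all tested genes, and DESeq2 called the same gene, against 0.93% of all genes called as lower. That gene, which goes against the direction of most of the list, was Bpgm, whose enzyme makes the 2,3-bisphosphoglycerate of red cells. It averaged 97.8 ± 42.3 CPM in sick and 208 ± 84.7 CPM in healthy mice, a log2 fold of -1.09 ± 0.32 (SE; edgeR adjusted p = 0.127; DESeq2 adjusted p = 0.0496). The groups overlapped. Within gated erythroid cells its log2 fold was -0.94 ± 0.28 (SE; edgeR adjusted p = 0.127). The next were Adpgk, an ADP-dependent glucokinase, at 158.5 ± 30.9 CPM in sick and 113 ± 46.1 CPM in healthy mice (edgeR adjusted p = 0.371), and Ldhb, the other main lactate dehydrogenase subunit, at 13.8 ± 2.52 CPM in sick and 8.61 ± 4.70 CPM in healthy mice (edgeR adjusted p = 0.375).

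Of 17 glucose and lactate transporters and genes of pyruvate fate, 13 were tested and 0 passed in either direction by edgeR or DESeq2. At an unadjusted p under 0.05, 2 were higher in sick mice, against 7.43% of all tested genes. The log2 fold was above 0 for 7 and below 0 for 6, with a median of 0.10. Slc16a3, the lactate exporter MCT4, averaged 59.9 ± 16.4 CPM in sick and 34.3 ± 18.9 CPM in healthy mice (log2 fold 0.76 ± 0.29, SE; edgeR adjusted p = 0.261). Slc2a3, the glucose transporter GLUT3, averaged 65.6 ± 9.63 CPM in sick and 44.5 ± 17.8 CPM in healthy mice (log2 fold 0.53 ± 0.22, SE; edgeR adjusted p = 0.309). Pdk1, a kinase that holds pyruvate dehydrogenase inactive, averaged 6.93 ± 2.57 CPM in sick and 12.2 ± 4.73 CPM in healthy mice (log2 fold -0.73 ± 0.35, SE; edgeR adjusted p = 0.371).

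All 7 genes of the pentose phosphate pathway, which branches off to make NADPH, were tested; 0 passed by edgeR or DESeq2 and 0 had an unadjusted p under 0.05, though all 7 log2 folds were above 0 (median 0.20, against -0.02 over all tested genes). The 3 with the smallest p were Tkt at 0.26 ± 0.17, Rpe at 0.28 ± 0.20 and G6pdx at 0.32 ± 0.24 (log2 fold ± SE).

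Of 19 genes of hypoxia-inducible factor and its known targets outside glycolysis, 14 were tested and 0 passed in either direction by edgeR or DESeq2. Ndrg1 (above 0) and Bnip3l (below 0) had an unadjusted p under 0.05, where 7.43% of all tested genes were higher and 6.36% lower. The log2 folds of the 14 were above 0 for 6 and below 0 for 8, with a median of -0.04. Bnip3l, a mitophagy receptor that clears mitochondria from maturing red cells, averaged 141 ± 41.7 CPM in sick and 249.6 ± 69.3 CPM in healthy mice (log2 fold -0.82 ± 0.24, SE; edgeR adjusted p = 0.124). Ndrg1 averaged 15.7 ± 4.40 CPM in sick and 9.63 ± 5.05 CPM in healthy mice (edgeR adjusted p = 0.354), and the oxygen sensor Egln3 6.04 ± 1.17 CPM in sick and 8.66 ± 3.10 CPM in healthy mice (edgeR adjusted p = 0.422). Hif1a, the oxygen-regulated subunit itself, had a log2 fold of 0.23 ± 0.18 (SE; edgeR adjusted p = 0.599).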

How the data were processed

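Raw whole-number counts per gene and cell, as deposited by the authors in 1 table, were used; 0 values were not whole or were negative. Per the labels, reads from several sequencing rounds were merged and processed with bcl2fastq, Picard, STAR and the Drop-seq protocol 1.0.1. The labels name GRCh38 and the submitters' processing notes GRCm38 and mm9, so coordinates come from GENCODE M21 (GRCm38) by symbol. Counting by strand is not given in the sources used here.

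Kept cells had 200 or more detected genes and no more than 20% of counts from mitochondrially encoded genes. A cell was gated when its marker counts reached 1.5 times what its total predicted, and 1.5 times the next class, with at least 2 distinct markers (10101 cells, of which 2635 fell under a stricter cut of 2). That cut was set after marker counts were seen. Cells in which no class led the next by this factor stayed ungated, so a gated cell could still hold markers of other classes. No doublet caller was run. Gates needed 20 cells per mouse and 3 mice per group. Counts were summed per mouse and tested with edgeR 4.0.16 (filterByExpr, TMM, quasi-likelihood) in R 4.3.3. DESeq2 1.42.0 was an alternative. Copies were found with BLAST+ 2.17.0. The tests were tested on simulated data.

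The members, lists and markers were chosen with earlier results of these data known. From each list the genes called in the whole joint, or otherwise the 3 with the smallest p, are named, and all 10 members; Hif1a was added after its value was seen. Ranking by likeness needed members tested in all 6 gated cell types; none was, so 4 cell types were used, a choice made after seeing the data, as was the summing of copies. Replicates are the mice as the labels number them.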

Additional observations from a re-analysis of the deposited data

Results flagged for a closer look

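In 3 of 67 groups examined, 1 mouse stood apart from the others of its group by Dixon's criterion, which chance alone meets in about 1 in 20 groups. In each of them it was sick mouse 4, and it was the lowest. Pkm in the whole joint was at 70.5 CPM in sick mouse 4, against 119 to 135 CPM in the other sick mice. Pkm in granulocyte progenitors was at 122 CPM in sick mouse 4, against 202 to 231 CPM in the other sick mice. The 10 members summed made up 0.0696% of the neutrophil counts of sick mouse 4, against 0.0952% to 0.105% in the other sick mice. Sick mouse 4 had the fewest counts of the sick mice (1589079) and the highest share of mitochondrially encoded counts among them (6.05%), and the part of either in these values was not tested.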

How the results depend on the processing

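With healthy mice 2, 3 and 4 left out together, where the lone healthy mouse is assumed to vary like the sick mice, genes called fell to 12 in the whole joint, 9 in neutrophils, 7 in granulocyte progenitors, 0 in monocytes or macrophages, 17 in erythroid cells, 7 in B cells and 3 in eosinophils. As reported, the whole joint had 97, neutrophils 19, granulocyte progenitors 23, monocytes or macrophages 15, erythroid cells 36, B cells 21 and eosinophils 12. With no filter on low counts 282 genes and 1 member were called in the whole joint, 38 genes in neutrophils, 58 in granulocyte progenitors, 102 in monocytes or macrophages and 69 in erythroid cells; this setting moved the median of all genes by more than 0.1 in the gates. DESeq2 called 254 genes and 2 members in the whole joint, 24 genes in monocytes or macrophages and 25 in eosinophils. In the whole joint, cells with at least 400 genes gave 51 and gated cells alone 55. Thinning to the smallest total gave 4 in neutrophils, 13 in granulocyte progenitors, 19 in erythroid cells and 12 in B cells; a stricter gate gave 9 in neutrophils and 13 in granulocyte progenitors; leaving out globin, mitochondrial and ribosomal RNA-like genes gave 3 in B cells and 5 in eosinophils.

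The log2 fold changed sign for Pfkl (-0.13) and Gapdh (0.13) in the whole joint and Eno1 in neutrophils (-0.28) with a replicate block; for Gapdh with no filter (0.061) and with gated cells alone (0.019); for Pgk1 with at least 400 genes (-0.17); for Pgam1 with gated cells alone (-0.039); for neutrophil Pkm with no filter (0.32), a stricter gate (0.018) and at least 50 cells (0.071); and, against healthy mouse 1 alone, for neutrophil Aldoa (-0.060), monocyte or macrophage Pkm (-0.18) and erythroid Aldoa (-0.22). Without globin, mitochondrial and ribosomal RNA-like genes in the total, the order of neighbours turned for Hk2 (-0.10), Pfkl (-0.072), Tpi1 (0.028), Pgam1 (-0.044), Eno1 (-0.019) and Ldha (-0.13 and -0.12). The cause was not tested.

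Leaving out 1 mouse at a time gave 53 to 255 genes called in the whole joint, 18 to 40 in erythroid cells, 8 to 29 in neutrophils, 3 to 22 in monocytes or macrophages, 1 to 31 in granulocyte progenitors, 0 to 80 in eosinophils, 6 to 38 in B cells and 3 to 14 for the interaction, with 0 to 2 members called in the whole joint. The whole-joint count was highest without healthy mouse 1 (255) and lowest without sick mouse 5 (53), and also fell to 60 without healthy mouse 4 or sick mouse 3 and 61 without healthy mouse 2. Log2 folds that changed sign ranged from -0.29 to 0.19 for Gapdh and -0.16 to 0.37 for Pfkl in the whole joint, -0.11 to 0.18 for neutrophil Pkm, -0.13 to 0.32 for erythroid Aldoa, and -0.59 to 0.077 for Eno1 and -0.51 to 0.49 for Ldha in the interaction.

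Mice with the same number correlated at 0.173, -0.0479 and 0.0701 and share only a number. The replicate block called 71 genes and 0 members in the whole joint, 12 genes in B cells and 7 in eosinophils. Settings that left too few mice gave no value: at least 50 cells in 4 gates, at least 400 genes in 4, a stricter gate in 2, and eosinophils of healthy mouse 4.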
